A study of Mus musculus with 63 samples.

Results

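Fatty acids reach a liver cell along several routes, and 9 genes of these routes were followed through the loss of HCF-1 from mouse hepatocytes. They were chosen by symbol from the 15616 genes of the deposited table, as the lipase, receptors, transporters and binding proteins Lpl, Vldlr, Cd36, Slc27a2, Slc27a4, Fabp1, Fabp2, Fabp4 and Fabp5. All 9 were in the table, none was listed at 0 in any library, and all 9 were tested. HCF-1 is the product of the X-linked gene Hcfc1, a chromatin-bound co-regulator of transcription that is recruited to promoters by sequence-specific factors such as THAP11 and ZNF143.

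Lipoprotein lipase frees fatty acids from circulating triglyceride, and the VLDL receptor and CD36 bind lipoproteins or free fatty acids at the cell surface. The proteins of the SLC27 family (FATP) take up fatty acids and couple them to coenzyme A, and the small cytosolic proteins of the FABP family carry them inside the cell. In a healthy adult liver FABP1 and FATP2 are abundant hepatocyte proteins, whereas Lpl, Cd36, Vldlr and Fabp4 are better known from muscle, fat, endothelium and macrophages. Members of this set are widely studied in fatty liver disease, in which PPARγ and PPARα control several of them.

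Poly(A) RNA of single mouse livers was sequenced in 63 libraries, 1 per mouse. The 26 KO males carried Alb-Cre-ERT2tg, a Cre recombinase driven by the albumin promoter and switched on by tamoxifen, together with the floxed Hcfc1 lox/Y genotype, in which the only copy can be cut. The 12 Het females carried the same Cre and were Hcfc1 lox/+, so that an intact allele remained and, because of X inactivation, hepatocytes with and without HCF-1 can be expected side by side. The 25 WT males are Hcfc1 lox/Y without Cre by the protocol, while their genotype label reads C57BL/6. All mice were 10 to 14 weeks old, were kept on breeder chow and received 3 daily intraperitoneal injections of 1 mg tamoxifen, and livers were taken on days 0 to 14 after the first. KO and WT livers numbered 2 per day on days 0 to 9 and 1 per day on days 10 to 13, with 2 KO livers and 1 WT liver on day 14, and there was 1 Het liver on each of 12 days. The effects of Cre and of the loss of Hcfc1 cannot be told apart in this design, nor can sex and genotype for the Het livers, since no WT females were analysed here.

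Depth was estimated at 17.8M to 55.7M reads per library. Values are read densities (RPKM), in which reads are divided by gene length and by a size for each library, so that levels can be compared between genes. That size was not the estimated depth. It was 21.5M for the KO liver of day 13, which had an estimated 43.3M reads, and 42.1M for the second WT liver of day 0, with 36.4M reads. Livers were grouped into day 0, days 1 to 2, days 3 to 5, days 6 to 9 and days 10 to 14. Hcfc1 itself (X: 71188131 to 71211696 on mm9) had 11.2 to 21.7 RPKM in the 8 KO livers of days 6 to 9, against 4.11 to 8.38 RPKM in the 8 WT livers, and it rose by 0.97 ± 0.14 on the log2 scale. A value over the whole gene does not measure the deletion between the lox sites and does not check the labels. Alb, 1 of 12 hepatocyte markers, had 2958 to 23710 RPKM in KO livers of days 10 to 14, against 53110 to 71640 RPKM in WT livers. On days 1 to 2 it already had 990 to 2291 RPKM, against 14380 to 30610 RPKM, when no other of these markers fell. Hnf4a, another of them, had 126 to 224 RPKM in KO livers of days 10 to 14 and 106 to 156 RPKM in WT livers. By the test described next, 38.6% of all genes rose and 11.1% fell in KO livers of days 10 to 14. In that window 5 of 12 hepatocyte markers fell and none rose. Of 13 macrophage and Kupffer cell markers 8 rose, as did 8 of 8 stellate cell and fibroblast markers, 4 of 5 duct cell markers and, near the share of all genes, 5 of 11 endothelial markers. These are whole livers, so fewer cells of a type and less RNA per cell cannot be told apart.

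Differences between genotypes are given as log2 KO minus WT relative to the median tested gene, ± the standard error, because the median gene itself was higher in KO livers on the deposited scale, by 0.33 on days 3 to 5, by 0.23 on days 6 to 9, and by as much as 0.85 on days 10 to 14. A rise or fall was called where limma's moderated test gave a Benjamini-Hochberg adjusted p below 0.05, in the same direction, on the deposited values and on values centred on each library's median. The larger of the 2 adjusted p-values is printed. Ranges of KO and WT livers are compared on the deposited values, on which the median gene itself was higher in KO livers. The share of all genes whose ranges did not overlap is not given, so a lack of overlap describes levels only. No member differed at day 0, where 8 of 12221 genes (0.0655%) did. On days 1 to 2, 1 of 9 members fell and none rose, where 10.9% of all genes changed, 9.05% up and 1.82% down. By days 3 to 5, 1 rose and 3 fell (36.1% of all genes changed, 26.5% up and 9.61% down). By days 6 to 9, 3 rose and 4 fell (53.9% of all genes, 35.1% up and 18.8% down). By days 10 to 14, 4 rose and 3 fell (49.6% of all genes, 38.6% up and 11.1% down). Between days 3 to 5 and days 10 to 14 the difference itself changed for 6 members, upward for 3 and downward for 3 (38.8% of all genes, 28.1% up and 10.6% down). Vldlr, one of those counted upward late, entered the test of males only through KO livers in which it was high, so its place in these counts supports nothing. Of the other 8 members, 3 rose and 3 fell on days 10 to 14. From days 6 to 9 on, rises among members were near the share of all genes. Falls were above it, with 4 of 9 against 18.8% on days 6 to 9 and 3 of 9 against 11.1% on days 10 to 14. With only 9 members and a background this high, the counts alone are not read as a result. The pattern lies in which members went up and which went down. The median member stood at -0.42 on days 3 to 5, at -0.19 on days 6 to 9 and then at 0.01 in the last window, against 0 for all genes tested.

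**Figure D1:**
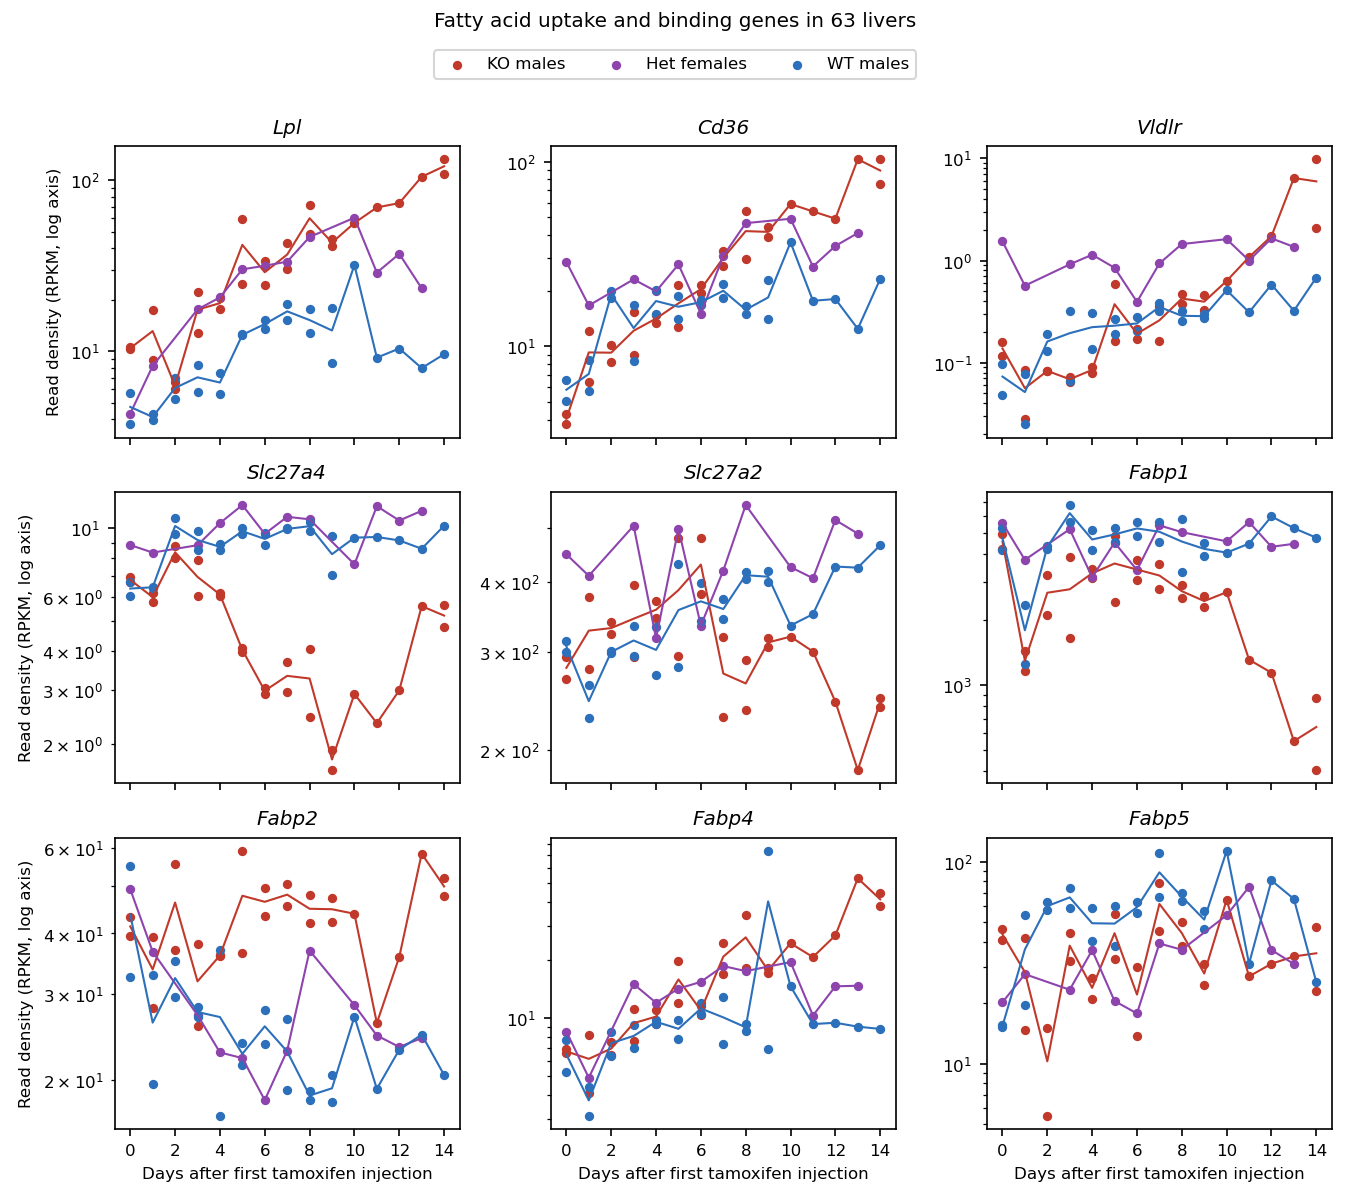
Read density (RPKM, log axis) of the 9 genes by day after the first tamoxifen injection. Points are single livers of KO males, Het females and WT males, and lines join the means of each day. Lpl, Cd36 and Vldlr climb in late KO livers. Slc27a4 (lowest on day 9), Slc27a2 and Fabp1 lie below WT points there, and the widely scattered Fabp5 shows KO points mostly below WT points from day 2.

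Lpl, the secreted lipase that frees fatty acids from triglyceride-rich lipoproteins (8: 71404390 to 71431347 on mm9), was called higher in KO livers from days 3 to 5 on and had the largest late difference upward. A gap without a call was there on day 0 already. In the 6 KO livers of days 3 to 5 it had 12.8, 21.4 and 59.1 RPKM (lowest, median and highest), against 5.67, 7.91 and 12.6 RPKM in the 6 WT livers. The 8 KO livers of days 6 to 9 had 24.3, 42.3 and 71.6 RPKM, against 8.51, 15.3 and 19.0 RPKM in the 8 WT livers, with no overlap. The 6 KO livers of days 10 to 14 had 56.4, 89.3 and 133 RPKM, against 32.0, 9.19, 10.4, 7.99 and 9.63 RPKM in the WT livers of days 10, 11, 12, 13 and 14. Every KO liver of that window stood above every WT liver, and the WT liver of day 10 stood apart from the other 4. The log2 difference was 1.16 ± 0.21 on days 3 to 5 (adjusted p = 1.01e-05), 1.23 ± 0.18 on days 6 to 9 (adjusted p = 1.83e-07) and 1.94 ± 0.22 on days 10 to 14 (adjusted p = 2.65e-09). The increase between days 3 to 5 and days 10 to 14 was itself past the threshold (0.77 ± 0.31, adjusted p = 0.015), but not without the WT liver of day 14 (0.63, adjusted p = 0.0659). The gap at day 0 was below the threshold: the 2 KO livers had 10.6 and 10.3 RPKM, against 5.72 and 3.75 RPKM in the 2 WT livers (1.08 ± 0.36, adjusted p = 0.47). On day 1 KO livers had 8.9 and 17.4 RPKM and WT livers 4.3 and 3.97 RPKM. On day 2 KO livers had 6 and 6.58 RPKM and WT livers 6.99 and 5.24 RPKM. The difference on days 1 to 2 was 0.59 ± 0.26 and was not called (adjusted p = 0.027 on deposited values and 0.0637 on centred ones). WT livers moved too, since Lpl rose on days 6 to 9 over day 0 in WT males (1.04 ± 0.29, adjusted p = 0.00434), a call that is lost without the second WT liver of day 0 (0.855, adjusted p = 0.111).

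Cd36, a membrane protein that binds long-chain fatty acids and modified lipoproteins (5: 17287508 to 17394777 on mm9, minus strand), was higher in KO livers from days 6 to 9 on. On day 0 the KO livers had 4.31 and 3.77 RPKM, against 6.53 and 5.07 RPKM in the WT livers. The genotypes overlapped on days 3 to 5, with 8.92, 14.1 and 21.4 RPKM in KO livers and 8.34, 15.8 and 20.1 RPKM in WT livers (lowest, median and highest). KO livers of days 6 to 9 had 19.3, 31.3 and 54.3 RPKM and WT livers 14.0, 17.3 and 22.7 RPKM. The 6 KO livers of days 10 to 14 had 49.1, 67.5 and 103 RPKM, against 36.5, 17.6, 18, 12.4 and 23.1 RPKM in the WT livers of days 10 to 14, with no overlap. Cd36 rose on days 6 to 9 (0.62 ± 0.17, adjusted p = 0.000307) and on days 10 to 14 (0.90 ± 0.21, adjusted p = 4.39e-05), and the change from days 3 to 5 was 1.32 ± 0.29 (adjusted p = 6.88e-05). Over day 0 it rose in both genotypes: on days 10 to 14 by 2.61 ± 0.28 in KO males and by 1.1 ± 0.28 in WT males.

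The stretch just before the Cd36 start is shown because Cd36 is a textbook PPARγ target and the window holds the nearest match, with 2 mismatches, to the DR1 repeat that pairs of PPAR and RXR bind, AGGTCA written a second time after 1 base of any kind. The sequence is RefSeq's (GRCm38.p6, chr5:17835900-17835999, minus strand, read 5′ to 3′ along the gene), and the capitals mark the match, which lies on the opposite strand with its first base 63 bases before the start.
Cd36: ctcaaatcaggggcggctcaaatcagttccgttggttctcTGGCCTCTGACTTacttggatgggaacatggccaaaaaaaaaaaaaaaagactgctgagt
Over 250 bases on both strands, 3.24% of 32851 promoters held the repeat with 2 mismatches or fewer, so such a match is common.

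Vldlr, the receptor that takes up triglyceride-rich lipoproteins and holds them beside the lipase (19: 27290974 to 27328721 on mm9), was the least abundant member. It reached 1 RPKM in 5 of 26 KO libraries, all from days 11 to 14, and in none of the 25 WT libraries, so that among males it entered the test only through the KO livers where it was high. Early on, KO livers of days 3 to 5 had 0.0646, 0.0848 and 0.584 RPKM, against 0.0655, 0.230 and 0.323 RPKM in WT livers (lowest, median and highest). From day 10 to day 13 the KO livers had 0.631, 1.08, 1.73 and 6.43 RPKM, and the 2 KO livers of day 14 had 2.10 and 9.82 RPKM. The WT livers of days 10 to 14 had 0.512, 0.311, 0.582, 0.322 and 0.681 RPKM. The last 5 KO values lay above all WT values and the day 10 value among them. As a description, the log2 difference was 1.30 ± 0.46 on days 10 to 14, and it was 0.92 without the KO liver of day 13 and 0.91 without the WT liver of day 13. The change between days 3 to 5 and days 10 to 14 was 2.26 ± 0.63. The counts behind these values were small, at 7 to 2118 reads per library.

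Slc27a4, which encodes FATP4, an acyl-CoA synthetase of the endoplasmic reticulum that draws long-chain fatty acids into the cell (2: 29658154 to 29673042 on mm9), fell in every window from days 3 to 5 on. The genotypes were alike at day 0, with 6.94 and 6.68 RPKM in KO livers and 6.71 and 6.06 RPKM in WT livers. The 6 KO livers of days 3 to 5 had 3.98, 6.04 and 7.89 RPKM, against 8.5, 9.26 and 10.0 RPKM in the 6 WT livers. The 8 KO livers of days 6 to 9 had 1.65, 2.94 and 4.08 RPKM, against 7.04, 9.75 and 10.5 RPKM in the 8 WT livers. From day 3 on, every KO liver lay below every WT liver of its window. Late KO livers, of days 10 to 14, had 2.34, 3.90 and 5.63 RPKM, against 9.33, 9.38, 9.14, 8.59 and 10.2 RPKM in WT livers. Slc27a4 fell by 1.06 ± 0.11 on days 3 to 5 (adjusted p = 2.48e-06), by 2.01 ± 0.09 on days 6 to 9 (adjusted p = 9.39e-15) and by 2.23 ± 0.11 on days 10 to 14 (adjusted p = 2.25e-11). It was already lower on days 1 to 2 on centred values (adjusted p = 0.00903) and not past the threshold on the deposited ones (adjusted p = 0.298). Its levels in KO livers of days 13 and 14 (5.60, 4.81 and 5.63 RPKM) were above those of day 9 (1.65 and 1.92 RPKM). Relative to each library's median, the difference between KO and WT livers was -2.5 on day 9 and -2.02 on day 14.

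The sequence before the Slc27a4 start is shown because it holds, without a mismatch, the element that THAP11 and ZNF143, both known partners of HCF-1, recognise: ACTACA, 2 bases of any kind, TCCCAG, 1 base of any kind and an A. It is RefSeq's (GRCm38.p6, chr2:29802527-29802626, plus strand), and the capitals mark the element, which begins 67 bases before the start on the gene's own strand.
Slc27a4: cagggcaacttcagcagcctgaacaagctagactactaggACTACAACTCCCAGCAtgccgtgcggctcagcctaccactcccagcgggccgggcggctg
This element was searched for after the Slc27a4 promoter had been seen. On both strands of the 250 bases before the start, 209 of 32851 promoters (0.636%) held it exactly, and 1.68% held it with 1 mismatch or none. The other members with a promoter in the table, Slc27a2, Fabp1, Fabp2, Cd36 and Vldlr, were at least 4 mismatches away. Among the 152 tested genes with the exact element, Slc27a4 included, 34.2% fell and 32.2% rose on days 6 to 9. Of the 9142 tested genes in the promoter table, 19.1% and 35.4% did. The median difference of the 152 was -0.26. On days 1 to 2, 2.63% fell and 5.92% rose, against 1.79% and 9.06%. On days 3 to 5, 16.4% fell and 28.3% rose, against 9.51% and 27.1%. On days 10 to 14, 23.7% fell and 30.9% rose, against 11% and 38.9%. The part of the element in these shares was not tested. A match describes letters and is not evidence of binding.

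Slc27a2, which encodes FATP2, the main hepatic member of the family and a very-long-chain acyl-CoA synthetase (2: 126378143 to 126413979 on mm9), fell late and moderately. The genotypes overlapped on days 3 to 5, with 293, 357 and 479 RPKM in KO livers and 272, 314 and 431 RPKM in WT livers (lowest, median and highest). The 8 KO livers of days 6 to 9 had 229, 311 and 479 RPKM and WT livers 340, 399 and 418 RPKM. In the last window KO livers had 184, 246 and 319 RPKM, against 334, 350, 426, 424 and 465 RPKM in WT livers, and the ranges no longer overlapped. Slc27a2 fell by 0.54 ± 0.11 on days 6 to 9 (adjusted p = 0.0135) and by 1.49 ± 0.13 on days 10 to 14 (adjusted p = 6.31e-05), and the change since days 3 to 5 was -1.33 ± 0.18 (adjusted p = 0.000422). The difference on days 10 to 12 alone, with fewer livers, was smaller and below the threshold (-0.89, adjusted p = 0.0705). On those days each KO liver (319, 300 and 244 RPKM) stood below each WT liver (334, 350 and 426 RPKM).

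**Figure D2:**
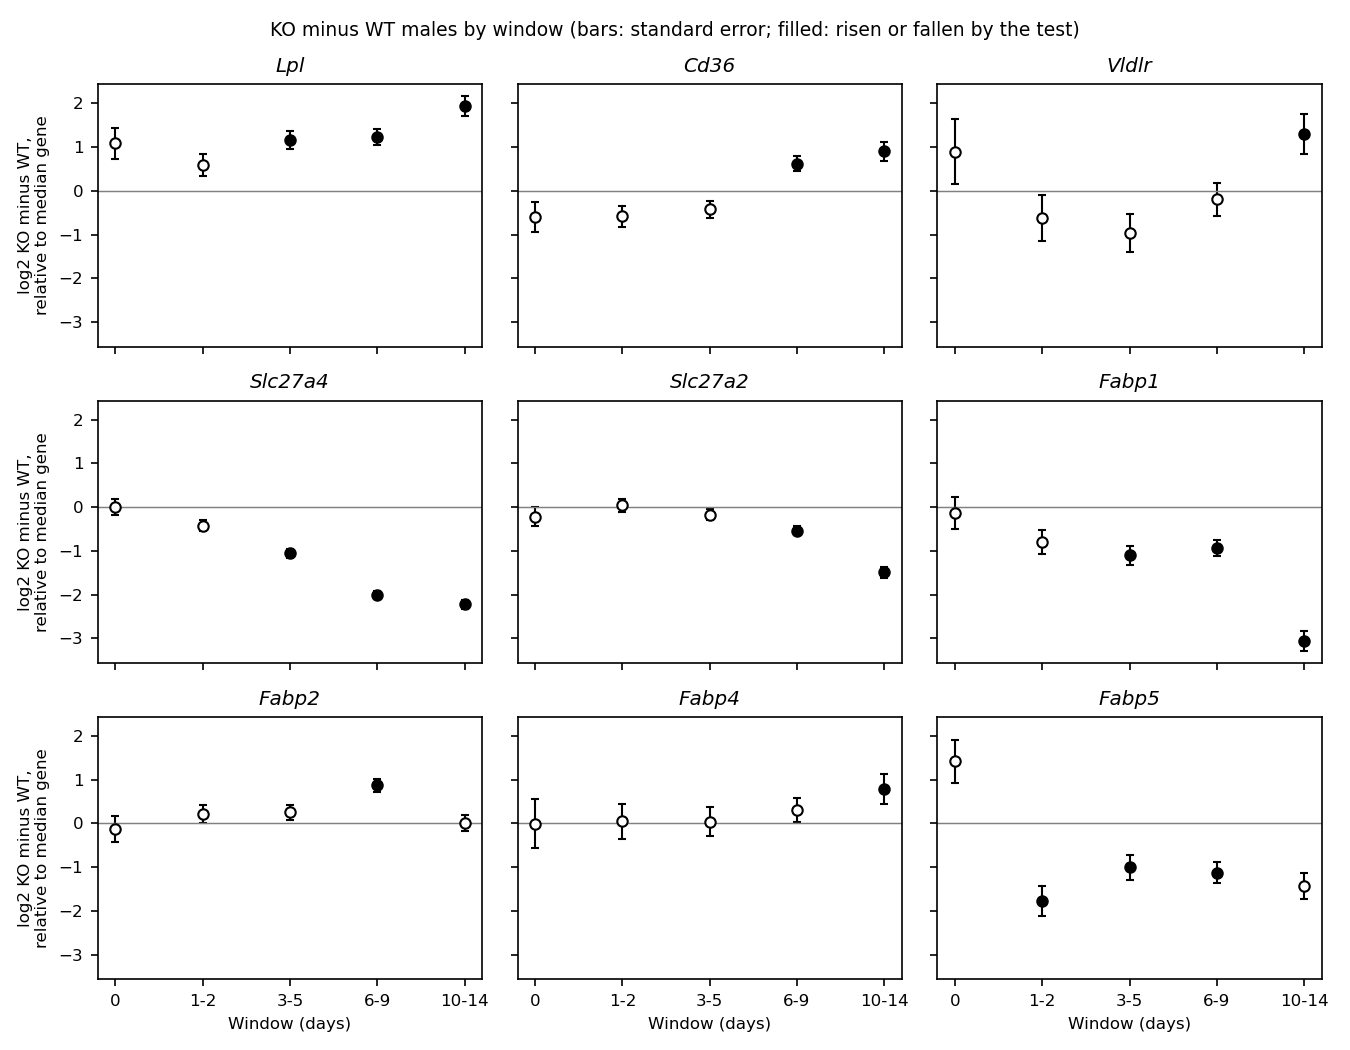
Log2 difference of KO minus WT males for each gene and window of days, relative to the median tested gene. Points are estimates with their standard errors as bars, filled where the gene rose or fell by the test. Lpl, Cd36 and Vldlr end above 0 and Slc27a4, Slc27a2 and Fabp1 end below it, with Slc27a4 at -2.01 by days 6 to 9 and Fabp1 at -3.06 on days 10 to 14.

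Fabp1, the liver fatty acid binding protein and a PPARα target (6: 71149821 to 71155017 on mm9), was the most abundant member and had the largest decrease. On day 0 the KO livers had 4960 and 4220 RPKM, against 5320 and 4200 RPKM in the WT livers. Both genotypes were low on day 1, with 1430 and 1160 RPKM in KO livers and 2330 and 1250 RPKM in WT livers, and the WT livers had 4400 and 4260 RPKM on day 2. KO livers of days 6 to 9 had 2302, 2830 and 3776 RPKM, against 3320, 4718 and 5859 RPKM in WT livers (lowest, median and highest). The late KO decline was steep, with 2680 RPKM on day 10, 1310 on day 11, 1140 on day 12, 552 on day 13, and 406 and 876 on day 14. The WT livers had 4080, 4490, 5990, 5290 and 4780 RPKM on days 10 to 14, all above every KO liver. Fabp1 fell by 1.1 ± 0.22 on days 3 to 5 (adjusted p = 0.0037), by 0.93 ± 0.19 on days 6 to 9 (adjusted p = 0.00212) and by 3.06 ± 0.23 on days 10 to 14 (adjusted p = 2.2e-09). The change between the first and the last of these windows was -1.96 ± 0.32 (adjusted p = 0.000402).

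The Fabp1 promoter is shown beside that of Cd36 because it holds the closest match to the same repeat among the members, with 1 mismatch, although the levels of these genes went opposite ways. RefSeq gives the sequence (GRCm38.p6, chr6:71199772-71199871, plus strand), and the capitals mark the match, on the opposite strand, 67 bases before the start.
Fabp1: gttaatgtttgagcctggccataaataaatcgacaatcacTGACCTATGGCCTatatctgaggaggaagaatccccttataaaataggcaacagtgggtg
With 1 mismatch or none, 0.484% of promoters held the repeat. Slc27a2 and Fabp2 were 3 mismatches away, Vldlr at least 4 and Slc27a4 5.

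Fabp2, the binding protein named for intestine and also made in liver (3: 122597990 to 122602424 on mm9), was higher in KO livers on days 6 to 9. On day 0 KO livers had 43.2 and 39.5 RPKM and WT livers 54.9 and 32.5 RPKM. The 8 KO livers of days 6 to 9 had 42.0, 46.5 and 50.5 RPKM, against 18, 19.8 and 27.9 RPKM in the 8 WT livers (lowest, median and highest), with no overlap. Fabp2 rose by 0.88 ± 0.15 in KO relative to WT livers on days 6 to 9 (adjusted p = 6.77e-06). Against its own day 0, it fell in WT males by 1.60 ± 0.24 on days 6 to 9 (adjusted p = 0.000853), and without the first WT liver of day 0 the decline was 1.35 (adjusted p = 0.0742). In KO males the same change was -0.62 ± 0.24 relative to the median gene (adjusted p = 0.0368 on centred values and 0.556 on deposited ones) and was not called. KO livers of days 10 to 14 had 26.2, 45.9 and 58.3 RPKM and WT livers 27.0, 19.2, 23.1, 24.8 and 20.5 RPKM. In that window the difference was 0.86 on the deposited scale (adjusted p = 0.000122) and 0.01 ± 0.18 relative to the median gene, so no call was made. Of markers of intestine and pancreas, Vil1, a gene of intestinal and bile duct epithelium, had 0.0331 to 0.169 RPKM in KO livers of days 6 to 9 and 0.0124 to 0.121 RPKM in WT livers. Cela1, an elastase gene, had 24.7 to 65.1 RPKM in KO livers and 27.5 to 44.7 RPKM in WT livers. Pnlip, the pancreatic lipase gene, was listed at 0 in all 8 KO livers and in 7 of 8 WT livers of that window. The part of such tissue in the Fabp2 values was not tested.

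Fabp4, the binding protein of adipocytes and also of macrophages and endothelial cells (3: 10204347 to 10208576 on mm9), rose late. KO livers of days 3 to 5 had 7.60, 11.1 and 19.7 RPKM and WT livers 6.99, 9.24 and 9.81 RPKM (lowest, median and highest). The KO livers of days 10 to 13 had 24.4, 20.7, 26.8 and 53.0 RPKM and on day 14 38.1 and 44.4 RPKM. The WT livers of days 10 to 14 had 14.6, 9.30, 9.45, 9.02 and 8.78 RPKM, all below every KO liver. Fabp4 rose by 0.79 ± 0.35 (adjusted p = 0.0224), and the adjusted p was 0.061 without the KO liver of day 13, 0.0599 without the WT liver of day 13, 0.0715 without the WT liver of day 14 and 0.211 on days 10 to 12 alone. Among the adipocyte markers most confined to fat, Adipoq had 0.0253 to 0.0939 RPKM in the 6 KO livers and was listed at 0 in all 5 WT livers. Cfd had at most 0.0872 RPKM in the KO livers and 0.0333 to 1.14 RPKM in the WT livers. In the 6 KO livers Plin1 was at most 0.0480 RPKM and Retn was listed at 0. There Cidec, a PPARγ target that fatty hepatocytes also make, reached 176 RPKM. The summed level of the 9 adipocyte markers was 120.4 to 409.5 RPKM in the KO livers and 562 to 1516 RPKM in the WT livers, of which Car3, also a hepatocyte gene, made up 18.2 to 369 RPKM in KO and 534 to 1495 RPKM in WT livers. The summed level of the 13 macrophage and Kupffer cell markers was 977 to 2190 RPKM in the 6 KO livers and 265 to 857 RPKM in the 5 WT livers. That of the 11 endothelial markers was 182 to 324 RPKM in KO livers and 79.5 to 183 RPKM in WT livers. Their part in the increases of Fabp4, Lpl and Cd36, which these cells also make, was not tested.

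One WT liver bears on the earlier Fabp4 result. The second WT liver of day 9 had 73.6 RPKM of Fabp4, against 6.93 to 12.8 RPKM in the other 7 WT livers of days 6 to 9. The same liver held 23.6 RPKM of Cfd, 4.49 of Adipoq, 4.06 of Retn and 1.20 of Plin1, where the other 7 had at most 0.258, 0.0506, 0.0413 and 0.0244 RPKM. Cidec was also higher there, at 2.40 RPKM against at most 0.275, while the broadly expressed Lipe and Pnpla2 lay within the range of the others. With that liver the KO minus WT difference of Fabp4 on days 6 to 9 was 0.31 ± 0.28 (adjusted p = 0.224), and without it the difference was 0.72 (adjusted p = 3.75e-05). Its Lpl (18 RPKM) lay within the range of the other 7 (8.51 to 19.0), and its Cd36 (22.7) was just above theirs (14.0 to 21.7). The part of adipocyte RNA in its Fabp4 was not tested.

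**Figure D3:**
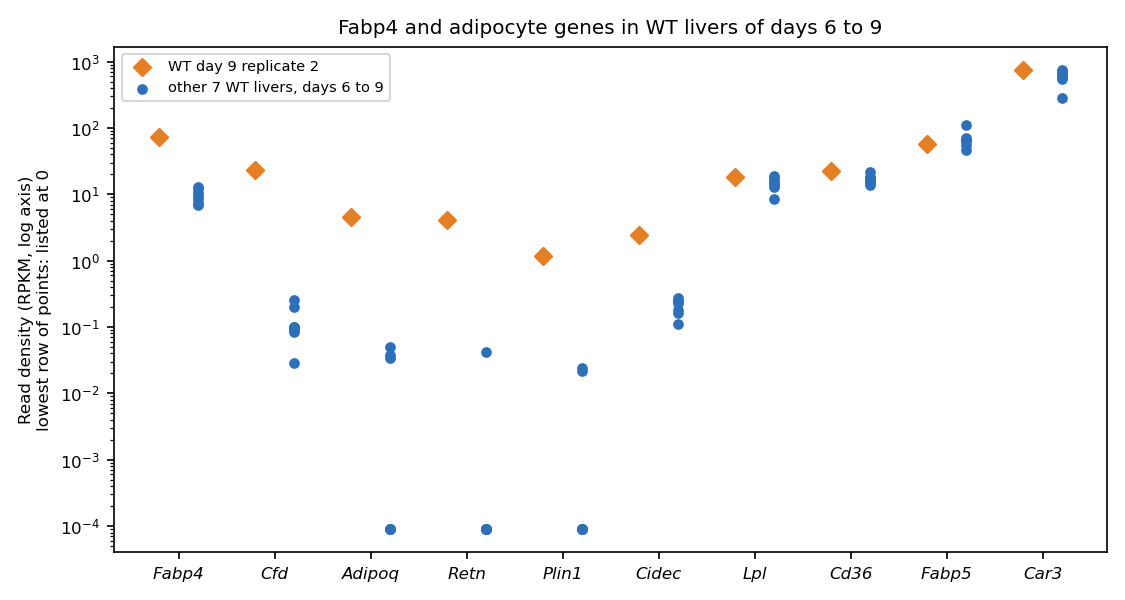
Read density (RPKM, log axis) of Fabp4, adipocyte genes and 3 other members in the 8 WT livers of days 6 to 9. The diamond is the second WT liver of day 9 and the points are the other 7, with genes listed at 0 drawn at the bottom. Fabp4, Cfd, Adipoq, Retn, Plin1 and Cidec stand apart in that liver, and Lpl, Fabp5 and Car3 do not.

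Fabp5, a binding protein of skin and macrophages that is also present in liver (3: 10012548 to 10016607 on mm9), had a lower mean in KO livers on each of days 2 to 13 and scattered widely. On day 0 it was the other way round, with 40.8 and 46.4 RPKM in KO livers and 15.6 and 15.1 RPKM in WT livers (1.42 ± 0.49, adjusted p = 0.544). On days 1 and 2 the KO livers had 42.0, 14.7, 15 and 5.51 RPKM, against 54.1, 19.4, 57.3 and 63.1 RPKM in the WT livers. Fabp5 fell by 1.78 ± 0.35 on days 1 to 2 (adjusted p = 0.00319), by 1.00 ± 0.28 on days 3 to 5 (adjusted p = 0.0437) and by 1.12 ± 0.24 on days 6 to 9 (adjusted p = 0.00256). Leaving out any of 7 of the 12 livers of days 3 to 5 took that window's result below the threshold, with differences of -1.03 to -0.87. In the last window KO livers had 22.9, 32.5 and 64.7 RPKM and WT livers 113, 31.2, 80.6, 65.3 and 25.3 RPKM, and the difference of -1.44 ± 0.30 was not past the threshold on the deposited values (adjusted p = 0.0719). It was past it after quantile normalization (-1.46, adjusted p = 0.000334), without the second KO liver of day 14 (-1.50) and without the WT liver of day 14 (-1.60). The libraries of that window alone gave -1.44, but only the KO livers of day 14 are replicated there, which leaves 1 residual degree of freedom. On day 14 itself the KO livers had 22.9 and 47.4 RPKM and the WT liver 25.3 RPKM. Fabp4 and Fabp5 are neighbours on chromosome 3, yet Fabp4 rose on days 10 to 14 while Fabp5 had a negative difference.

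The library names end in B_1 or B_2, a mark whose meaning the labels do not give. On days 0 to 9 both genotypes carry both marks, days 2 and 9 carry only B_2, and all livers of days 10 to 14 and all Het livers carry B_1. Within B_1 and B_2 on days 6 to 9, the difference was 1.38 and 1.15 for Lpl, 0.60 and 0.63 for Cd36, -1.76 and -2.15 for Slc27a4, -0.44 and -0.59 for Slc27a2, -0.93 and -0.93 for Fabp1, 0.84 and 0.90 for Fabp2, and -1.69 and -0.78 for Fabp5. Each had the sign of the pooled result. With fewer livers, Cd36, Slc27a2 and Fabp1 were past the threshold only within B_2 and Fabp5 only within B_1. On days 3 to 5 the values were 1.36 and 0.96 for Lpl, -1.07 and -1.05 for Slc27a4, -1.55 and -0.66 for Fabp1 and -0.94 and -1.05 for Fabp5, of which Lpl passed in both marks, Slc27a4 within B_2 (adjusted p = 0.00699) and not within B_1 (adjusted p = 0.0732), and the other 2 in neither. For Fabp5 on days 1 to 2 the difference was -0.45 within B_1 and -2.22 within B_2 (adjusted p = 1 and 0.00523).

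Relative to their own day 0, KO males showed 1 member up on days 3 to 5 (Cd36; 22.4% of all genes rose and 2.56% fell), 2 up and 2 down on days 6 to 9 (Cd36 and Lpl, Slc27a4 and Fabp1; 30.6% and 5.41%) and 3 up and 2 down on days 10 to 14 (Cd36, Lpl and Vldlr, Slc27a4 and Fabp1; 35.6% and 4.89%). The Fabp1 call on days 6 to 9 (adjusted p = 0.0475) was lost without either KO liver of day 0 (adjusted p = 0.233 and 0.104), without any of 6 single KO livers of days 6 to 9 (adjusted p = 0.052 to 0.0733) and with no filter on low values (adjusted p = 0.0733), and after quantile normalization the change was 0.021. Vldlr entered this test of males only through late KO livers in which it was high, so its place in the counts over day 0 supports nothing. Its KO rise on days 10 to 14 also lost the threshold after quantile normalization (1.48, adjusted p = 0.0632). WT males changed as well. Fabp5 and Cd36 rose and Fabp2 fell on days 3 to 5 (12.4% of all genes rose and 0.794% fell), Vldlr, Fabp5, Cd36 and Lpl rose and Fabp2 fell on days 6 to 9 (18.0% and 1.32%), and Vldlr and Cd36 rose and Fabp2 fell on days 10 to 14 (16.0% and 0.884%). These contrasts share the 2 day 0 livers of each genotype. In WT males on days 10 to 14, Fabp2 was not called without the first WT liver of day 0 (-1.35), nor Vldlr without the second (1.655). Vldlr, below 1 RPKM in every WT library, also lost that late call after quantile normalization (0.72, adjusted p = 0.544) and with log2(RPKM + 0.5) (0.18, adjusted p = 0.837). Without the first WT liver of day 0 the WT counts were 0 of 3 on days 3 to 5 and 2 of 5 on days 6 to 9, and without the second they were 1 of 3 and 1 of 5.

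Het females were sampled with 1 liver per day. Lpl had 4.33 and 8.23 RPKM in the Het livers of days 0 and 1, and 60.5, 28.9, 37.2 and 23.4 RPKM in those of days 10 to 13. It rose over days 0 to 1 by 1.26 ± 0.39 on days 3 to 5, by 1.85 ± 0.39 on days 6 to 8 and, on days 10 to 13, by 1.96 ± 0.37 (adjusted p = 0.0471, 0.00606 and 0.00288). Fabp2 had 49.3 and 36.7 RPKM on days 0 and 1 and 23.4 to 28.5 RPKM on days 10 to 13, and it fell in all 3 windows, by 1.36 ± 0.23 in the last (adjusted p = 0.0133). No other member was called. On deposited values alone limma's test passed Fabp4 upward in all 3 windows (adjusted p = 0.00481, 0.000803 and 0.00244) and Fabp5 upward on days 10 to 13 (adjusted p = 0.0419). On centred values alone it passed Slc27a2 downward on days 6 to 8 (adjusted p = 0.039). Of 11919 genes, 3.50% rose and 0.529% fell on days 3 to 5, 9.54% rose and 0.445% fell on days 6 to 8, and 13.5% rose and 0.503% fell on days 10 to 13. Leaving out the Het liver of day 0, 4 or 5 removed both calls of days 3 to 5. Without the day 0 liver, which leaves 1 liver on days 0 to 1, Fabp2 also lost its calls in the later windows. Its changes were then -1.33 on days 6 to 8 and -1.14 on days 10 to 13. Fabp4 was called as risen in its place, with changes of 1.03 and 0.96. Macrophage and Kupffer cell markers moved with Lpl in these livers, since 5, 11 and 13 of the 13 rose in the 3 windows. Their summed level was 708 to 1472 RPKM in the Het livers of days 10 to 13, against 159 and 176 RPKM in those of days 0 and 1. Of the 11 endothelial markers, 0, 1 and 4 rose. Their part in the Lpl increase was not tested.

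Cd36 and Vldlr were already high in Het livers on days 0 and 1. Cd36 had 28.6 and 16.6 RPKM in the Het livers of days 0 and 1, against 5.07 to 8.45 RPKM in the 4 WT livers of those days. Vldlr had 1.54 and 0.567 RPKM in the Het livers, against 0.0249 to 0.0973 RPKM in the WT livers. Neither range overlapped, in a comparison where 60.9% of tested genes were higher in the Het livers without overlap and where sex and genotype differ together. Across all days Het livers had 0.394 to 1.65 RPKM of Vldlr and WT livers 0.0249 to 0.681 RPKM.

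**Figure D4:**
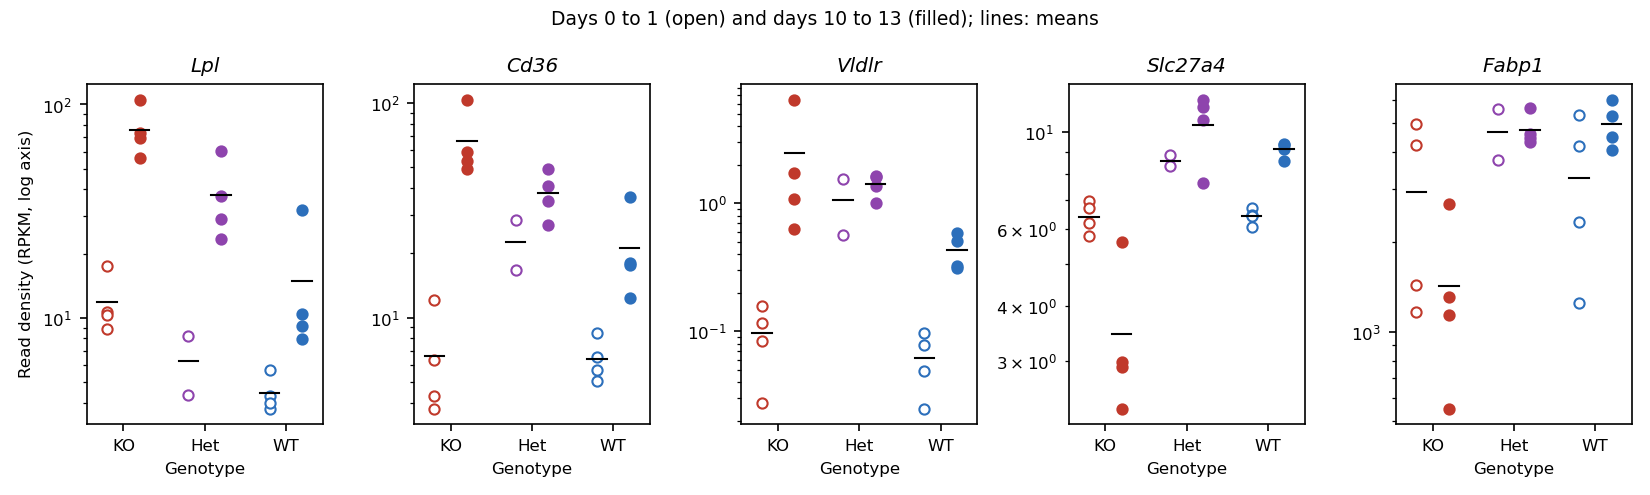
Read density (RPKM, log axis) of 5 members in KO males, Het females and WT males on days 0 to 1 (open points) and days 10 to 13 (filled points), with lines at the means. KO livers of days 10 to 13 stand below Het and WT livers in Slc27a4 and Fabp1, whereas Het livers of days 0 to 1 already hold 16.6 to 28.6 RPKM of Cd36.

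The change between days 0 to 1 and days 10 to 13 was then compared between genotypes in a fit of all 63 libraries. Between Het females and KO males 4 of 9 members differed (26.5% of 12380 genes did). The Het change minus the KO change was 1.87 ± 0.21 for Slc27a4 (adjusted p = 1.8e-05) and 1.69 ± 0.41 for Fabp1 (adjusted p = 0.0328), the members that fell in KO males. It was -1.99 ± 0.44 for Cd36 (adjusted p = 8.58e-05) and -3.14 ± 0.80 for Vldlr (adjusted p = 0.000635), the members that started high in females. For Lpl it was 0.50 ± 0.45 (adjusted p = 0.794). Late Het livers, of days 10 to 13, had 7.65 to 11.8 RPKM of Slc27a4, against 2.34 to 5.60 RPKM in the KO livers, and 4343 to 5643 RPKM of Fabp1, against 552 to 2683 RPKM. The Fabp1 difference lost the threshold without KO livers of day 0 (replicate 1), day 1 (replicate 1) or day 13, or without the Het liver of day 1 or 11, with values of 1.15 to 1.69. It was 0.93 after quantile normalization (adjusted p = 0.118) and 1.72 with no filter on low values (adjusted p = 0.0506). Between Het females and WT males no member's change differed (0.186% of genes did). There Lpl was at 1.18 ± 0.45 (adjusted p = 0.832) and Vldlr at -2.22 ± 0.80 (adjusted p = 0.45). The lack of a call does not show that the changes were equal.

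By level, the median over the 26 KO livers was 2634 RPKM for Fabp1, 303 for Slc27a2, 42.8 for Fabp2, 32.7 for Fabp5, 32.2 for Lpl, 21.4 for Cd36, 14.5 for Fabp4, 4.46 for Slc27a4 and 0.192 for Vldlr. Over the 25 WT livers it was 4583 RPKM for Fabp1, 340 for Slc27a2, 58.6 for Fabp5, 23.8 for Fabp2, 16.8 for Cd36, 9.38 for Slc27a4, 9.19 for Lpl, 9.02 for Fabp4 and 0.274 for Vldlr. In WT livers the ranges of Fabp1 and Slc27a2 at the top and of Vldlr at the bottom touched those of no other member, and Lpl, Slc27a4 and Fabp4 overlapped. In KO livers the lowest Fabp1 value (406 RPKM) lay below the highest Slc27a2 value (479 RPKM), and the highest Vldlr value (9.82 RPKM) above the lowest of Slc27a4 (1.65 RPKM).

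Each member had genes with a closely similar course over the 51 male livers, measured as Pearson's r of centred log2 values; the livers share genotype and time, so this describes the course only. For Slc27a4 these were 0610011F06Rik (r = 0.984) and Hmg20b (0.977). For Slc27a2 they were Slc17a2 (0.948) and Pbld1 (0.947), for Fabp1 Fggy (0.948) and Tymp (0.941), and for Lpl Sat1 (0.902) and Spats2l (0.899). Cd36 ran with Plcl2 (0.872) and Fam49b (0.87), and Vldlr with Cyp2a4 (0.865) and Krt23 (0.851). The closest genes of Fabp2 were Apoa1 (0.793) and Rbbp4 (0.772), those of Fabp4 Tulp3 (0.744) and Serpinh1 (0.724), and those of Fabp5 Rbm20 (0.701) and Ptgds (0.67), the loosest fits of the set.

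Around the members, the other genes of the pathway also went both ways. Of 9 tested genes for fatty acid activation and other transporters, 1 rose and 3 fell on days 10 to 14, when 38.6% of all genes rose and 11.1% fell: Acsl4, a synthetase that prefers arachidonic acid, rose by 1.33 ± 0.17, while Acsl1, the main long-chain synthetase of liver, fell by 2.21 ± 0.15, the bile acid and fatty acid ligase gene Slc27a5 fell by 2.16 ± 0.12, and Acsm3 fell. Slc27a5 had risen by 0.38 ± 0.11 on days 3 to 5. By days 6 to 9, 2 rose and 3 fell (35.1% and 18.8% of all genes), and Slc27a1 (FATP1) fell by 1.70 ± 0.19. Of 8 tested acyl-CoA and other fatty acid binding proteins, 2 rose and 3 fell on days 10 to 14, with Acbd3 at 0.96 ± 0.13, Fabp7 at 1.49 ± 0.31, Acbd4 at -1.88 ± 0.13 and Dbi at -1.33 ± 0.12, while Dbi had risen by 0.32 ± 0.11 on days 3 to 5. The median of the first list was -0.43 and that of the second -0.51, against 0 for all genes tested.

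Of 14 tested genes that control lipoprotein lipase or encode related lipases, 6 rose and 3 fell on days 6 to 9, near the 35.1% and 18.8% of all genes. In the last window 1 rose and 4 fell (38.6% and 11.1% of all genes). Apoc2, the activator that lipoprotein lipase needs, rose by 0.98 ± 0.14 on days 3 to 5, by 1.16 ± 0.12 on days 6 to 9 and, on days 10 to 14, by 1.04 ± 0.15. Lmf1, which the lipase needs to fold, fell by 1.41 ± 0.08 on days 10 to 14, and hepatic lipase, Lipc, fell by 1.83 ± 0.12 in that window after it had risen by 0.49 ± 0.12 on days 3 to 5. Gpihbp1, which holds the lipase on capillary walls, was at 0.01 ± 0.14 and was not called.

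Of 10 tested lipoprotein and scavenger receptor genes, 6 rose and none fell on days 10 to 14 (38.6% and 11.1% of all genes), among them Sdc1 (0.59 ± 0.12), a heparan sulfate proteoglycan that takes up remnants. The macrophage genes Cd68 (1.06 ± 0.27) and Msr1 (0.73 ± 0.25) were also among the 6, in the window where 8 of 13 macrophage and Kupffer cell markers rose. Of 15 tested nuclear receptors and coregulators, 2 rose and 1 fell in that window, against the same shares. Pparg fell by 0.92 ± 0.18 on days 3 to 5 and rose by 0.59 ± 0.16 on days 6 to 9 and 0.80 ± 0.19 on days 10 to 14. Ppara rose by 0.31 ± 0.16 on days 3 to 5 (adjusted p = 0.0482) and fell by 1.33 ± 0.17 on days 10 to 14, when Ahr rose by 0.58 ± 0.17. Of 18 tested PPAR target genes, 7 rose and 4 fell on days 10 to 14, when 38.6% of all genes rose and 11.1% fell: the lipid droplet genes Cidec (6.44 ± 0.53) and Plin2 (1.39 ± 0.19) and the hormone gene Fgf21 (3.79 ± 0.59) rose, whereas the omega-oxidation gene Cyp4a10 fell by 2.24 ± 0.32.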

How the data were processed

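The authors deposited a table of log2 read densities (RPKM) for 63 liver libraries; per the submitters' processing notes they used TopHat2 2.0.13, Bowtie 1.1.2, edgeR and the mm9 genome, and the labels' protocols give stranded poly(A) libraries read as 50 nt single ends. The values are log2(RPKM + 8.9e-05), and genes without reads sit at the lowest value, -13.4557 (5.02% of values, called listed at 0). Strand use in counting is not given in the sources used here. The sizes of low values gave the reads per library: over 445 genes, 95% of values lay within 0.1 reads of a whole number. Depth was an estimated 21.2M to 55.7M reads in KO, 28.3M to 48.6M in Het and 17.8M to 53.1M in WT, and read counts set the precision of low genes such as Vldlr.

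Groups came from the titles of the samples. limma 3.58.1 in R 4.3.3 was used (empirical Bayes with a mean trend). It was fitted to 12221 genes of the 51 male libraries with log2 of 0 or more in at least 4. Further fits used 11919 genes of the 12 Het libraries and 12380 genes of all 63. Male livers had 1 term per genotype and day. Their windows are averages of days, and days with 1 liver borrow the spread of days with 2. Het livers had 1 term per window, so that livers of different days served as replicates within a window. The labels say that individual livers were used. The test was also run on simulated data, and that run is not used as support here. The second KO library of day 14 has no replicate number in the table, and was used as a second day 14 replicate. Replicate numbers did not pair KO with WT libraries: the correlation of their differences was -0.06 to 0.29 over days. Positions are from GENCODE on mm9. Promoters came from RefSeq, where 6 of 9 members matched; Lpl, Fabp4 and Fabp5 did not. The members and lists were chosen with earlier results of these data known. All members are named, with Hcfc1, the 2 genes closest to each member, and from each list up to 2 called genes of smallest p per window (all called, in lists of 12 or fewer); Gpihbp1, Lmf1, Ppara, Slc27a1 on days 6 to 9 and further single genes of the lists were named after their values were seen. Some genes of these lists are not reported here.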

Additional observations from a re-analysis of the deposited data

Results flagged for a closer look

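In 6 of 81 groups of 4 or more livers, 1 liver stood far from the others. Chance alone gives about 1 in 20 where all livers of a group are drawn alike. These groups pool livers of different days, so that rate need not apply. In WT livers of days 10 to 14, the day 10 liver had 32 RPKM of Lpl (the next 10.4) and 14.6 RPKM of Fabp4 (the next 9.45). In WT livers of days 6 to 9, the second liver of day 9 had 73.6 RPKM of Fabp4 (the next 12.8) and 7.04 RPKM of Slc27a4 (the next 8.81). The first KO liver of day 1 had 0.0278 RPKM of Vldlr (the next 0.0829), and the second WT liver of day 1 had 19.4 RPKM of Fabp5 (the next 54.1).

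For 6 members the KO minus WT difference on days 10 to 14 differed from that on days 3 to 5 by limma's test of the difference. It was larger by 1.32 for Cd36, 0.77 for Lpl and 2.26 for Vldlr (which entered the test only through its high KO livers), and it changed by -1.33 for Slc27a2, -1.17 for Slc27a4 and -1.96 for Fabp1 (38.8% of all tested genes differed). For 4 members the change from days 0 to 1 to days 10 to 13 differed between Het females and KO males, by -1.99 for Cd36, -3.14 for Vldlr, 1.87 for Slc27a4 and 1.69 for Fabp1. Sex and genotype differ together in that comparison.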

How the results depend on the processing

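Of the values for single members under the alternatives, 2502 kept their side of the threshold, 82 lost the threshold and 69 gained it. A further 4 changed sign where the main or the alternative setting made a call. Values called in neither setting could also change sign, and these are counted among the 2502. The 4 sign changes with a call were Slc27a4 in WT males over day 0 on deposited values alone (0.55 from day 6 to day 9 and also after day 9), Fabp1 in KO males on days 6 to 9 over day 0 after quantile normalization (0.021), and Vldlr in WT males on days 6 to 9 over day 0 with log2(RPKM + 0.5) (-0.051). None of these 4 was a KO minus WT result, and the cause was not tested. Counts of members are of 9.

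On deposited values alone, 2 members differed between KO and WT males on days 1 to 2; over day 0, 2 did in KO males on days 3 to 5 and 6 in WT males in the first and last windows, and 4 did in Het females on days 10 to 13. On centred values alone there were 3 on days 1 to 2, and over day 0 in KO males 5, 7 and 8 in the windows from day 3. Quantile normalization gave 2 on days 1 to 2, 4 in KO males on days 3 to 5 over day 0, and 1 in Het females on days 3 to 5, where log2(RPKM + 0.5) and no filter on low values also gave 1. With the libraries of the window alone, and with a replicate block, 2 differed on days 1 to 2; the numbers do not pair the samples by the check above, and the block moved no other count by more than 1.5 times, though it took Fabp5 on days 10 to 14 past the threshold (-1.50, adjusted p = 0.0204) and Fabp1 in KO males on days 6 to 9 over day 0 below it (adjusted p = 0.051). Only libraries marked B_1 gave 0, 1 and 4 in the windows from day 1 to day 9, where they called 8, 1250 and 1724 of all genes, and only those marked B_2 gave 2 on days 3 to 5 (2957 of all genes). Days 10 to 12 alone, chosen after seeing the data, gave 4 in place of 7 on days 10 to 14 (4899 of all genes). These subsets hold fewer livers.

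Leaving out single livers gave, for KO minus WT, 0 to 0 members at day 0, 1 to 2 on days 1 to 2 (2 without the first KO liver of day 1), 3 to 5, 7 to 8 and 5 to 8 in the 3 later windows, and 5 to 6 for the change between windows. Over day 0 it gave 1 to 3, 3 to 4 and 5 to 5 in KO males on days 3 to 5, 6 to 9 and 10 to 14 (3 without the second KO liver of day 3 or of day 5), and 0 to 3, 1 to 5 and 2 to 4 in WT males. In Het females it gave 0 to 2, 2 to 2 and 2 to 2 in the 3 windows (1 without the day 3 liver, 0 without the day 0, 4 or 5 liver), and the Het change differed from the KO change in 3 to 4 members and from the WT change in 0 to 0. An unchanged count can hide an exchange: without the Het liver of day 0, Fabp4 took the place of Fabp2 in the later Het windows. Depth limits Vldlr most, with as few as 7 reads in a library.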
